A study of Mus musculus with 6 samples.

Results

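The 36 genes described here encode enzymes and regulators of cholesterol and fatty acid synthesis, and were taken from count tables of 52636 genes by matching each symbol to its Ensembl mouse identifier in an annotation of the build mm10. They comprise 7 genes of the mevalonate steps, 11 of the steps from squalene to cholesterol, 4 of sterol sensing and transport, 2 oxysterol hydroxylases, 5 of fatty acid synthesis, and 7 of fatty acid elongation and desaturation. All 36 were found, and 35 passed the filter on low counts. RNA came from whole parotid salivary glands of FVB mice, an inbred strain, at an age of 28 days. There were 3 untreated samples and 3 irradiated samples, which had a dose of 5 Gy. The dose comes from protocol text that all 6 samples carry, and is taken here to describe the irradiated ones alone. The labels give neither the time from irradiation to collection nor a separate mouse for each sample, so p-values measure only the spread between these samples.

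Cells make cholesterol from acetyl-CoA through mevalonate, farnesyl diphosphate, squalene and lanosterol. When sterol in the endoplasmic reticulum is low, the transcription factor SREBP2, encoded by Srebf2, is released from its retention partner Insig1 and switches on the genes of this pathway, while SREBP1, encoded by Srebf1, acts more on fatty acid synthesis. Oxysterols, made by hydroxylases such as Cyp27a1, restrain SREBP processing and activate liver X receptors. In a salivary gland, membrane lipid is needed for secretory granules, and fat cells around the lobules make fatty acids of their own.

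The gene libraries held 7108359 to 15036193 counts in genes. Irradiated replicate 2 stood apart: it was the shallowest, its share of unaligned reads was 10.01%, where the other libraries had 3.75% to 4.33%, and 184 of its reads were set aside for low alignment quality against 342749 to 491591. Untreated replicate 2 had the lowest levels of T and B cell markers. Acinar markers were abundant in all libraries, summing to 460769 to 630671 CPM, which is counts scaled to library size, and markers of fat, muscle, duct and connective tissue were also present. In such bulk samples fewer cells of a type and less RNA per cell cannot be told apart.

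RefSeq promoter windows, from 250 bases before to 50 after a gene's start (GRCm38.p6), were at hand for 28 of the 36 genes, with 35 windows in all. Scd2, Scd1, Sqle, Stard4, Fdft1, Fdps, Fads1 and Cyp7b1 were not searched. Those of 6 genes are printed, picked after their values were seen. Idi1, Cyp51, Insig1 and Srebf2 had every irradiated library above every untreated one, and Cyp27a1 had the reverse. Hmgcs1 is an early enzyme of the same pathway whose groups overlapped. Msmo1, Hsd17b7 and Acacb, whose groups did not overlap either, have windows that are not printed. The windows are chr13:8885356-8885655 (plus strand) for Idi1, chr5:4104648-4104947 (minus strand) for Cyp51, chr5:28071162-28071461 (plus strand) for Insig1, chr15:82147019-82147318 (plus strand) for Srebf2, chr13:119690101-119690400 (plus strand) for Hmgcs1 and chr1:74713285-74713584 (plus strand) for Cyp27a1. Each is written 5′ to 3′ on the gene's strand, with capitals marking matches to any of the 4 motifs below.
Idi1: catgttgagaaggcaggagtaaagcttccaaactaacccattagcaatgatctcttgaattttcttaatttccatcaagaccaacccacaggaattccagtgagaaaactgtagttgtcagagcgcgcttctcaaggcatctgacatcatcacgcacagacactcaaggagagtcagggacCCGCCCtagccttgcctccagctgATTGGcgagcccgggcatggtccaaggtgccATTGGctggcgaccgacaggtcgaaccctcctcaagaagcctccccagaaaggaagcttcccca
Cyp51: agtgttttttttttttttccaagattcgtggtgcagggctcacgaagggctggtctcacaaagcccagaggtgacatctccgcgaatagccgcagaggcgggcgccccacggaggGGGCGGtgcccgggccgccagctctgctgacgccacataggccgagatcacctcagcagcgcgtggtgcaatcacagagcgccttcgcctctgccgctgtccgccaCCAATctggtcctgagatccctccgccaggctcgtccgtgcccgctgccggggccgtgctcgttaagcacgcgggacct
Insig1: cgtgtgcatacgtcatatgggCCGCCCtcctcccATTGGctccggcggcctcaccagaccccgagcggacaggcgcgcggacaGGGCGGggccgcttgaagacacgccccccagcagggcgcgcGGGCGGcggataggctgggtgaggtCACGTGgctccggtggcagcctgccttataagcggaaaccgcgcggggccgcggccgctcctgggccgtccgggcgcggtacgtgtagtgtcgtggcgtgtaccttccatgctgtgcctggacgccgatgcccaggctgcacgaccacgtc
Srebf2: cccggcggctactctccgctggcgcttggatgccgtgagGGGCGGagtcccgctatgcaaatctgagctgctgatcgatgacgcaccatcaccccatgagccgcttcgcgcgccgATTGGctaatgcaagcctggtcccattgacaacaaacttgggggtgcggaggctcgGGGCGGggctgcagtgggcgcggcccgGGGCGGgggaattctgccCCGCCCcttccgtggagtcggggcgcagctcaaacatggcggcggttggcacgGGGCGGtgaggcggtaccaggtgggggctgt
Hmgcs1: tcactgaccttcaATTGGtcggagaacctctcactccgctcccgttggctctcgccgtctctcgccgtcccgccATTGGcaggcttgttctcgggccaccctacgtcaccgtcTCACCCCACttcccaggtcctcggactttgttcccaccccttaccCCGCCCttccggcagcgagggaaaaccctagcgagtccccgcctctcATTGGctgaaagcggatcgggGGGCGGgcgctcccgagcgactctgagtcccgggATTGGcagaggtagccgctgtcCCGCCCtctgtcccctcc
Cyp27a1: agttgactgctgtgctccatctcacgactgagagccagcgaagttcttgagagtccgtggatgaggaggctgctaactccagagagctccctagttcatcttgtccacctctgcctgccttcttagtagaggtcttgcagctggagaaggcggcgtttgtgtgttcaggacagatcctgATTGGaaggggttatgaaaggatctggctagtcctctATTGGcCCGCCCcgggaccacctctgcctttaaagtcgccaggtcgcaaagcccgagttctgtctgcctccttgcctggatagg

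The motifs searched on both strands were TCACNCCAC, letters of the classical sterol regulatory element, CCAAT, the CCAAT box bound by NF-Y, GGGCGG, the GC box bound by Sp1, and CACGTG, the E-box. No 2 matches overlapped in the 6 printed windows. CCAAT stood in 25 of the 35 windows (71.4%), against 37.4% of all 32851 promoter windows of the same length. GGGCGG likewise stood in 25 windows (71.4%), against 35.7% of all. The E-box stood in 5 windows (14.3%), of Dhcr7, Elovl5, Hsd17b7, Insig1 and Sc5d, against 7.15% of all. TCACNCCAC stood in 1 window (2.86%), of Hmgcs1, against 1.24% of all. These backgrounds cover all promoter windows, whether or not the gene passed the filter on low counts. Shares among tested genes alone were not counted. All 6 printed windows held a CCAAT and a GGGCGG match, whichever way the gene's libraries lay. Of the 28 genes searched, 24 held a CCAAT match and 22 a GGGCGG match. The window with the sterol regulatory element letters belonged to Hmgcs1, whose groups overlapped. Only exact matches were counted, so windows without these letters may still hold variants of the element. A match is a description of letters, not of binding.

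Levels of different genes were compared in TPM, which is counts divided by the length of the merged exons and scaled to the library. In untreated glands the 4 most abundant members were genes of fatty acid synthesis or desaturation. Scd1, a stearoyl-CoA desaturase that makes monounsaturated fatty acids, led at 248.6 ± 148.9 TPM (SD, n = 3), with 198.4, 131.4 and 416.1 TPM in untreated replicates 1, 2 and 3. Scd2, a second desaturase of the same family, followed at 44.5 ± 5.64 TPM. Fasn, the fatty acid synthase, stood at 27.0 ± 13.5 TPM and Acly, which makes cytosolic acetyl-CoA from citrate, at 25.8 ± 7.11 TPM. The lowest Scd1 library lay above the highest Scd2 library, whereas the ranges of Scd2 and Fasn, and of Fasn and Acly, overlapped.

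Insig1 (18.3 ± 2.58 TPM), Srebf1 (12.1 ± 3.16 TPM), Ebp, a sterol isomerase (11.5 ± 0.882 TPM), and Hmgcs1, the cytosolic HMG-CoA synthase (10.8 ± 1.94 TPM), were the most abundant sterol genes. The 6 lowest were Sqle, the squalene epoxidase (0.762 ± 0.0900 TPM), Tm7sf2, a sterol reductase (0.737 ± 0.221 TPM), Fdps, the farnesyl diphosphate synthase (0.401 ± 0.155 TPM), Hsd17b7, a sterol ketoreductase (0.390 ± 0.0640 TPM), Stard4, a cholesterol transfer protein (0.346 ± 0.145 TPM), and Cyp7b1, an oxysterol hydroxylase (0.196 ± 0.183 TPM). Of the exon bases of Tm7sf2 12.1%, and of those of Fdps 26.7%, also lie in another gene model on the same strand. The counts and levels of both are therefore uncertain. The median over the 36 genes was 3.15 TPM, close to the 3.02 TPM of all tested genes. Of 35 neighbouring pairs in this order, 6 had ranges that did not overlap. The plot of levels per length shows this order. Merged exons count rare long transcripts, so that Lss, Acaca, Dhcr7, Msmo1 and other members have lower TPM than a single transcript would give. Merged lengths were 10787 and 17074 bases for Lss and Acaca, against 6992 and 9513 for their longest transcripts. For Dhcr7 and Msmo1 they were 5817 and 6144 bases, against 2815 and 2969.

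**Figure D1:**
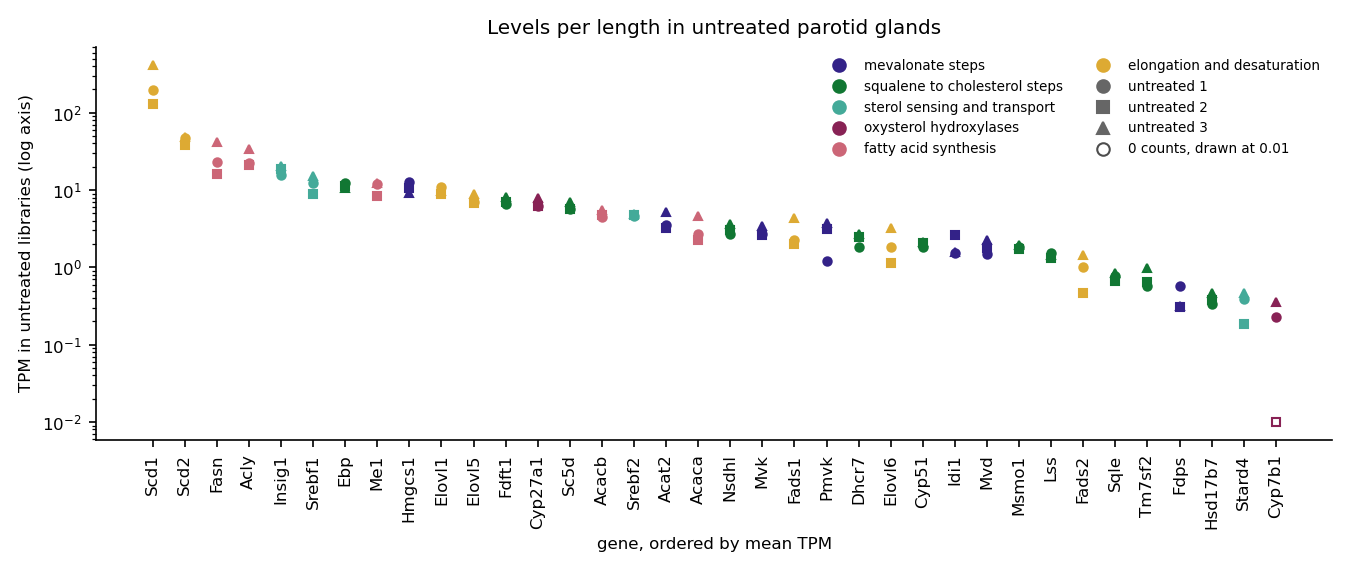
Levels of the 36 genes in the 3 untreated libraries, as TPM on a log axis, ordered by mean, with colour for role and marker shape for replicate; the open symbol marks 0 counts. Scd1 lies above all others in each library, and replicate 3 is the highest of the 3 for Scd1, Fasn and Acly.

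In irradiated glands Scd2 rose and Cyp27a1 fell, and the other 33 tested genes did not pass the threshold, an adjusted p of 0.05 by edgeR's quasi-likelihood test over all 12885 tested genes. The background was 0.652% of all tested genes called higher and 0.349% called lower, against 1 of 35 here in each direction. At an unadjusted p under 0.05 there were 10 of 35 genes, 8 with positive and 2 with negative fold changes, against 15.0% of all tested genes. Groups did not overlap for 9 genes that were higher and 3 that were lower, against 10.6% of all tested genes in each direction. These shares of all tested genes are also the background for the counts by list below. The median log2 fold change, irradiated over untreated, was 0.20 over the 35 genes and -0.01 over all tested genes. Without irradiated replicate 1 the median of the 35 genes was -0.01.

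**Figure D2:**
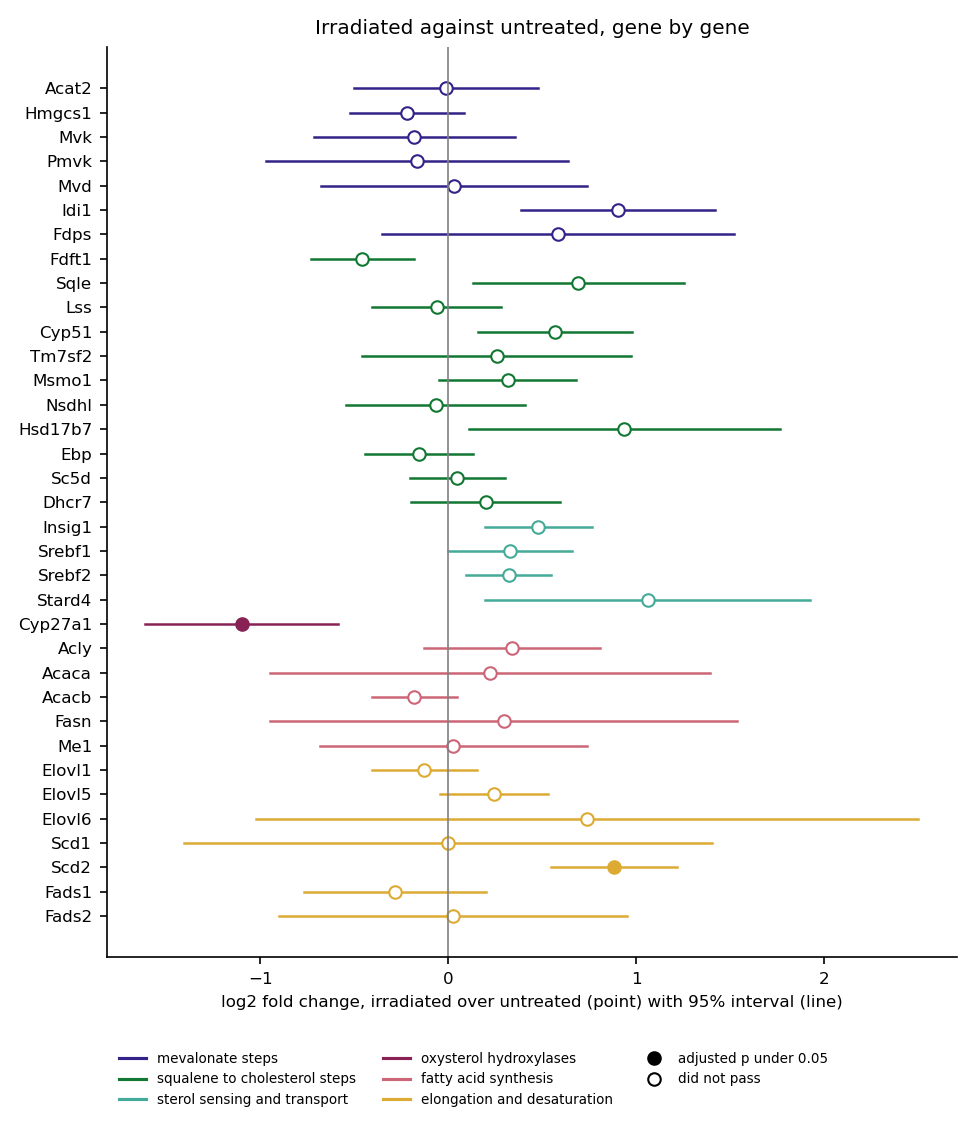
Log2 fold change of each of the 35 tested genes (points, filled where the adjusted p is under 0.05) with 95% intervals from edgeR (lines), coloured by role. The points of Scd2 at 0.88 and Cyp27a1 at -1.10 are filled, and the intervals of Scd1, Fasn, Acaca and Elovl6 are among the widest.

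Scaling mattered for which genes were called. With library totals alone, without the TMM factors that allow for differences in composition, the median over all genes shifted to 0.14, and 260 genes were called higher and 22 lower, against 84 and 45 with TMM. Relative to that shift the 35 genes kept about the same offset, with a median of 0.34. Under that scaling Idi1, Insig1 and Srebf2 were called higher beside Scd2, and Cyp27a1 was not called (adjusted p = 0.0689, edgeR). Where no setting is named, calls by edgeR come from the main fit, with TMM, the filter on low counts and all 6 libraries. Some genes said below not to pass were called under other settings, given at the end.

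Of the 7 mevalonate genes none passed by edgeR, DESeq2 or limma-voom, and 1 had an unadjusted p under 0.05. That gene was Idi1, the isopentenyl diphosphate isomerase, with 3.62, 6.30 and 3.27 CPM in untreated replicates 1, 2 and 3 and 9.32, 8.42 and 6.65 CPM in irradiated ones. Every irradiated library lay above every untreated one, though untreated replicate 2 came close to irradiated replicate 3. The difference was 1.87-fold, or 0.90 on the log2 scale (SE 0.25), with an edgeR adjusted p of 0.0778, and counts were 44, 72 and 49 against 140, 70 and 77. Without untreated replicate 2 the value was 1.24 and passed (edgeR adjusted p = 0.0242).

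Hmgcs1, which feeds the same pathway, stood at 39.9, 33.0 and 24.7 CPM untreated and 28.1, 27.3 and 28.4 CPM irradiated. Its irradiated libraries lay close together and inside the untreated range. The log2 fold change was -0.22, with a 95% interval from -0.52 to 0.08. Acat2, the cytosolic acetoacetyl-CoA thiolase, Mvk and Pmvk, the mevalonate and phosphomevalonate kinases, and Mvd, the decarboxylase, had log2 fold changes between -0.18 and 0.03, all with overlapping groups. Fdps had a log2 fold change of 0.59 on 10 to 28 counts per library, with an interval from -0.35 to 1.52. It shares 26.7% of its exon bases with a neighbouring gene model on the same strand, so its counts are uncertain. The median over the mevalonate genes was -0.01, equal at this precision to that of all tested genes.

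Among the 11 genes from squalene to cholesterol none passed by edgeR, DESeq2 or limma-voom. At an unadjusted p under 0.05 there were 4, against 15.0% of all tested genes. Groups did not overlap for 4 that were higher and 1 that was lower, against 10.6% of all tested genes in each direction. Sqle, the oxygen-dependent epoxidase that is a control point of the pathway, stood at 2.88, 2.54 and 2.80 CPM untreated and 4.26, 5.05 and 4.06 CPM irradiated. Its libraries were tight within each group, and the log2 fold change was 0.69 (SE 0.27; edgeR adjusted p = 0.22). Cyp51, the lanosterol demethylase, stood at 5.43, 6.30 and 5.54 CPM untreated and 9.99, 8.30 and 7.17 CPM irradiated. Irradiated replicate 1 was the highest, and the log2 fold change was 0.57 (SE 0.20; edgeR adjusted p = 0.161). Of its exon bases 3.76% also lie in Akap9 on the opposite strand, a gene with 455 to 1050 counts per library, so its counts are uncertain where strand was not used.

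Msmo1, the C4-methylsterol oxidase, lay between 7.07 and 7.49 CPM untreated and between 7.94 and 9.84 CPM irradiated, with a log2 fold change of 0.31. Hsd17b7 went from 14, 15 and 21 counts to 34, 29 and 21, or 1.15 to 1.40 CPM against 1.81 to 3.49 CPM. Its log2 fold change of 0.94 has an interval from 0.11 to 1.76.

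Fdft1, the squalene synthase that commits farnesyl diphosphate to sterols, went the other way, with 19.0, 20.4 and 20.7 CPM untreated and 14.1, 16.7 and 13.1 CPM irradiated. The groups did not overlap, and the log2 fold change was -0.46 (SE 0.13; edgeR adjusted p = 0.0951). Of its exon bases 18.3% also lie in Ctsb, an abundant gene on the opposite strand with 1655 to 3732 counts per library, and the strand setting of the counting is not given in the sources used here. Lss, Tm7sf2, Nsdhl, Ebp, Sc5d and Dhcr7, which cyclise squalene epoxide, reduce, decarboxylate, isomerise and desaturate the sterol ring, had log2 fold changes from -0.16 to 0.26 with overlapping groups. Sc5d, the lathosterol desaturase, was the steadiest, at 18.6 to 20.1 CPM untreated and 18.9 to 21.3 CPM irradiated, with an interval from -0.20 to 0.30.

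Summed over all 18 enzymes of the mevalonate and later sterol steps, CPM was 158.2, 159.0 and 148.2 in untreated and 161.9, 159.6 and 146.0 in irradiated replicates 1, 2 and 3. The sums overlapped, with a ratio of means of 1.00, and 10 of the 18 genes had positive and 8 negative fold changes. Of 15 listed cycling genes 13 were tested and 4 rose, Mki67, Mcm2, Mcm3 and Mcm5, while the groups of 5 tested ones overlapped. The list summed to 56.1 to 60.7 CPM untreated and 76.4 to 125.8 CPM irradiated. Their part in the values of the sterol genes was not tested.

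**Figure D3:**
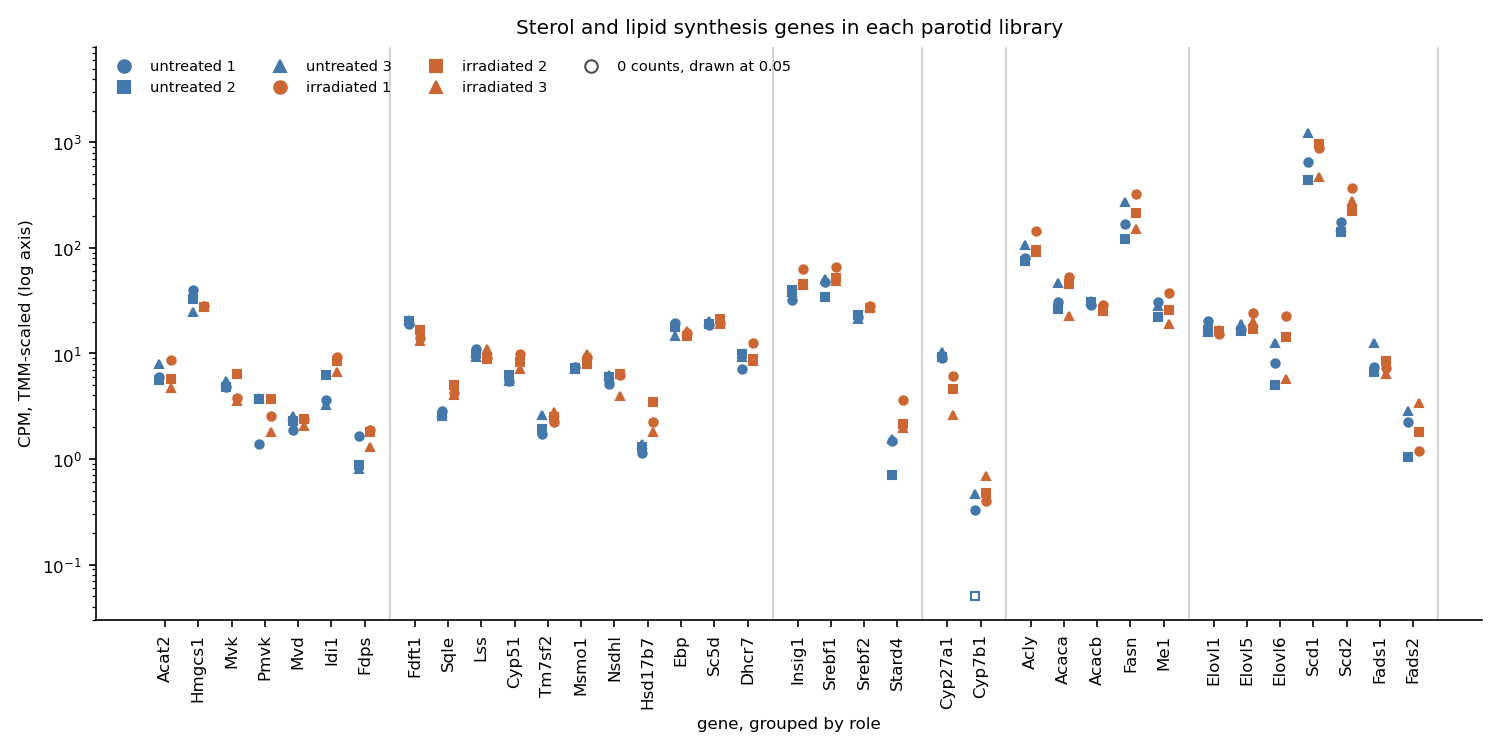
CPM of each of the 36 genes in each of the 6 libraries (log axis), with genes grouped by role, blue for untreated, orange for irradiated, and marker shape for replicate; the open symbol marks 0 counts. Insig1, Srebf2, Stard4 and Scd2 show irradiated points above the untreated ones, Cyp27a1 and Fdft1 below, and Scd1, Fasn and Elovl6 spread widely in both groups.

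All 4 genes of sterol sensing and transport had positive log2 fold changes, between 0.32 and 1.06 with a median of 0.40. None passed by edgeR, DESeq2 or limma-voom, with 3 at an unadjusted p under 0.05, against 15.0% of all tested genes. Insig1, which holds SREBP in the endoplasmic reticulum and is itself an SREBP target, stood at 32.3, 40.1 and 37.8 CPM untreated and 62.9, 45.3 and 45.0 CPM irradiated. Irradiated replicate 1 was far above the other libraries, but the groups did not overlap. The log2 fold change was 0.48 (SE 0.14; edgeR adjusted p = 0.0974), and 0.30 without irradiated replicate 1.

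Srebf2 stood at 22.1, 23.3 and 21.0 CPM untreated and 27.9, 27.2 and 27.6 CPM irradiated. Both groups were tight and apart, yet the difference is small, at 1.25-fold or 0.32 on the log2 scale (SE 0.11), and an edgeR adjusted p of 0.154. Srebf1 went from 47.4, 34.0 and 50.8 CPM to 65.4, 51.7 and 48.9 CPM. Its groups overlapped, with a log2 fold change of 0.33 (SE 0.15; edgeR adjusted p = 0.336). Stard4, which carries cholesterol between membranes, had 18, 8 and 23 counts untreated and 54, 18 and 23 irradiated, or 1.48, 0.699 and 1.53 against 3.60, 2.16 and 1.99 CPM. Scaled for depth its groups did not overlap, and the log2 fold change of 1.06 has an interval from 0.20 to 1.92. For each of these 4 genes the highest value was in irradiated replicate 1.

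Cyp27a1 (ENSMUSG00000026170; chromosome 1, 74713574 to 74737892, plus strand, mm10) encodes the mitochondrial sterol hydroxylase that makes an oxysterol from cholesterol. It stood at 9.13, 9.36 and 10.3 CPM in untreated replicates 1, 2 and 3 and at 6.13, 4.57 and 2.59 CPM in irradiated ones. The untreated libraries lay close together, and the irradiated ones were all lower but spread over a 2.37-fold range. On counts of 107 to 155 untreated and 30 to 92 irradiated, the log2 fold change was -1.10 (SE 0.24; edgeR adjusted p = 0.0329), with an interval from -1.61 to -0.59. The call was kept without irradiated replicate 1, at -1.46, and lost without each of the other 5 libraries in turn, at edgeR adjusted p values from 0.0668 to 0.0983. With the replicate number as a block the value was -1.16 and did not pass (edgeR adjusted p = 0.0856).

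Macrophages also express Cyp27a1. Of 13 macrophage markers 12 were tested and none passed by edgeR, with 3 at an unadjusted p under 0.05. Their fold changes were negative for 9 and positive for 3, with a median of -0.15. Csf1r, Cd68, C1qa and C1qc were lower in every irradiated library, as Cyp27a1 was, and Lyz2, Marco and Timd4 were higher in every one; these 7 are named after their values were seen. The whole list summed to 180.9 to 219.3 CPM untreated and 215.8 to 218.7 CPM irradiated, of which Lyz2 made up 49.4 to 77.5 and 87.4 to 95.7 CPM. Skeletal muscle markers, 12 in number, summed to 562.8 to 705.2 CPM untreated and 181.3 to 557.2 CPM irradiated, lowest in irradiated replicate 3 as Cyp27a1 was. The fat cell markers described below, at 386.7 CPM, and 8 fibroblast markers, at 898.3 CPM, also had their lowest sums in that library. The fibroblast sums were 1117.9 to 1802.6 CPM untreated and 898.3 to 1197.8 CPM irradiated. All 8 fibroblast markers had negative fold changes, and 1 passed by edgeR. Of 18 clock genes 17 were tested, and 3 fell by edgeR, Ciart, Tef and Usp2, against 0.349% of all tested genes called lower. Groups did not overlap for 4 clock genes that were higher and 9 that were lower, against 10.6% of all tested genes in each direction. The clock list summed to 464.8 to 506.7 CPM untreated and 279.9 to 383.5 CPM irradiated, a sum that mixes both directions. The part of macrophages, of muscle, fat cell or fibroblast content, or of clock phase in the fall of Cyp27a1 was not tested.

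Cyp7b1, the oxysterol hydroxylase that clears such products, was at the limit of detection, with 4, 0 and 7 counts in untreated and 6, 4 and 8 in irradiated replicates 1, 2 and 3. It did not pass the filter on low counts and has no fold change. The 0 counts in untreated replicate 2 allow up to 0.262 CPM, taking 3 counts as the limit and covering counting error only.

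Fasn and Acaca varied more between libraries of 1 group than between the group means. Fasn stood at 168.5, 120.4 and 274.4 CPM untreated and 324.8, 214.6 and 151.0 CPM irradiated. The groups overlapped across a 2.28-fold untreated range, and the log2 fold change of 0.29 has an interval from -0.95 to 1.53. Acaca, the cytosolic acetyl-CoA carboxylase that supplies malonyl-CoA to Fasn, stood at 30.9, 26.1 and 46.6 CPM untreated and 53.3, 45.5 and 22.4 CPM irradiated. Its log2 fold change was 0.22, with an interval from -0.95 to 1.39.

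Acly stood at 80.1, 75.5 and 106.9 CPM untreated and 143.4, 96.5 and 91.8 CPM irradiated, with overlapping groups and a log2 fold change of 0.34. Me1, the malic enzyme that supplies NADPH, had a log2 fold change of 0.03 with an interval from -0.68 to 0.74. Acacb, the carboxylase isoform at the mitochondrion whose malonyl-CoA restrains fatty acid oxidation, varied less than Acaca. It lay at 28.8, 31.0 and 31.6 CPM untreated and at 28.6, 26.6 and 25.4 CPM irradiated, lower in each irradiated library by a small margin. Its log2 fold change was -0.18 (SE 0.11; edgeR adjusted p = 0.474). Of these 5 genes none passed by edgeR, DESeq2 or limma-voom, and none had an unadjusted p under 0.05.

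Scd2 (ENSMUSG00000025203; chromosome 19, 44293674 to 44306864, plus strand, mm10) was the member that rose. It stood at 175.6, 142.3 and 156.2 CPM in untreated replicates 1, 2 and 3 and at 366.5, 225.3 and 281.0 CPM in irradiated ones. Every irradiated library was above every untreated one, with replicate 1 the highest, on 1628 to 2342 counts untreated and 1873 to 5504 irradiated. The rise was 1.84-fold, or 0.88 on the log2 scale (SE 0.16), with an interval from 0.55 to 1.22 and an edgeR adjusted p of 0.0138. The call was lost without untreated replicate 2, at 0.81 (edgeR adjusted p = 0.0663), and without irradiated replicate 1, at 0.68 (edgeR adjusted p = 0.0659). Without irradiated replicate 2, the library that stood apart, it was kept at 1.03.

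Scd1, the more abundant desaturase, had no such pattern. It stood at 654.3, 440.3 and 1214 CPM untreated and 884.5, 955.0 and 465.8 CPM irradiated, with the highest and the lowest library both untreated. Its log2 fold change was -0.00 with an interval from -1.41 to 1.40, which does not exclude a rise as large as that of Scd2. The ratio of Scd2 to Scd1 in TPM was 0.240, 0.289 and 0.115 in untreated and 0.371, 0.211 and 0.540 in irradiated replicates 1, 2 and 3. The groups overlapped, with a log2 difference in the ratio of 0.80 and an exact two-sided permutation p of 0.3 (n = 3 each, where the smallest possible p is 0.1). This was the 1 ratio tested. The desaturases are close paralogs, and reads that align to more than 1 place were not counted, so their counts are uncertain. Scd3, another paralog, named after its values were seen, had 6, 7 and 5 counts untreated and 19, 15 and 8 irradiated, and did not pass the filter.

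Elovl6, which elongates palmitate, had the widest spread of the 35 genes among irradiated libraries, a 3.94-fold range, at 8.06, 4.98 and 12.5 CPM untreated and 22.8, 14.2 and 5.78 CPM irradiated. Irradiated replicate 3 was below untreated replicates 1 and 3, and the log2 fold change was 0.74 with a standard error of 0.65. Elovl1, which elongates very long chains, and Elovl5, which elongates polyunsaturated ones, had log2 fold changes of -0.13 and 0.24 with overlapping groups. Fads1 and Fads2, the desaturases of polyunsaturated fatty acids, stood at -0.28 and 0.03 with overlapping groups. Among the 7 genes of elongation and desaturation the median was 0.03.

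Fat cell markers moved with several of these genes among libraries. The 15 listed markers, which include the lipid droplet protein Plin1 and the adipokine Adipoq, summed to 579.9, 487.3 and 905.1 CPM in untreated and 495.3, 628.0 and 386.7 CPM in irradiated replicates 1, 2 and 3. Of them 13 were tested and none passed by edgeR, with 2 at an unadjusted p under 0.05, and 11 had negative fold changes with a median of -0.32. The 2 with the smallest p were Pnpla2 and Lipe, lipases of stored fat, at log2 fold changes of -0.40 and -0.55. Scd1, Fasn, Acaca, Elovl6 and Acly were all highest in untreated replicate 3 and lowest in untreated replicate 2 within the untreated group, as the fat cell sum was. Within the irradiated group all 5 genes were lowest in replicate 3, as the fat cell sum was. Scd1 followed the sum's order there too, highest in replicate 2, whereas Fasn, Acaca, Elovl6 and Acly were highest in replicate 1. Fads1 also followed the sum's order in both groups. Acacb, Me1, Elovl1 and Scd2 did not follow it among untreated libraries, and Elovl5 and Fads2 did not among irradiated ones.

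Divided by the fat cell sum, Fasn was 0.291, 0.247 and 0.303 in untreated and 0.656, 0.342 and 0.390 in irradiated libraries, so that its groups, which overlapped in CPM, no longer did. Acaca went the same way, at 0.0515 to 0.0537 untreated and 0.0580 to 0.1075 irradiated, and so did Elovl6, at 0.0102 to 0.0139 and 0.0150 to 0.0460. Acly still overlapped, at 0.118 to 0.155 and 0.154 to 0.289, and so did Me1, at 0.0310 to 0.0531 and 0.0408 to 0.0758. Scd1 by the same measure was 1.13, 0.904 and 1.34 against 1.79, 1.52 and 1.205, so that its groups still overlapped. Scd2 was 0.303, 0.292 and 0.173 against 0.740, 0.359 and 0.727, and its groups did not overlap by this measure either. The fat cell sum averaged 657.4 CPM untreated and 503.3 CPM irradiated, so dividing by it raises irradiated against untreated values, on average, for any gene. How many of all tested genes separate under this division was not counted. The part of fat cell content in these values was not tested.

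**Figure D4:**
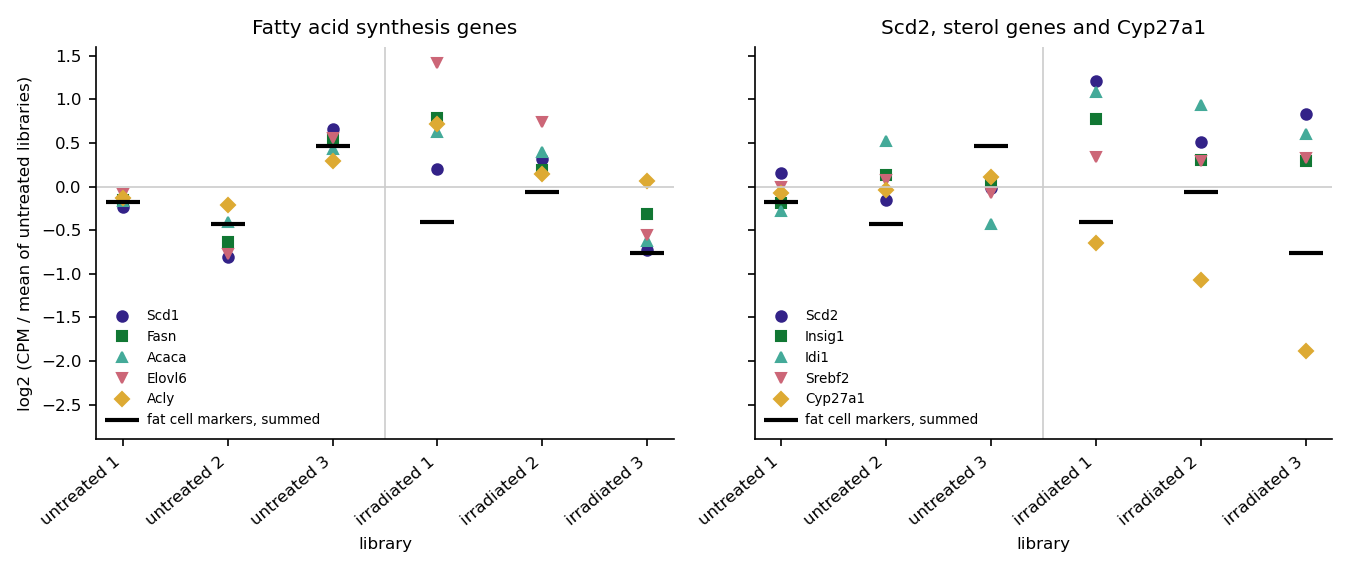
Log2 of CPM over the mean of the untreated libraries, by library, for 5 fatty acid genes (left) and for Scd2, 3 sterol genes and Cyp27a1 (right), with the summed fat cell markers as black bars in both. On the left the points follow the bars in the untreated libraries; on the right Scd2, Insig1, Idi1 and Srebf2 lie above and Cyp27a1 below their untreated levels in each irradiated library.

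Of 14 tested T cell markers 2 passed, Cd5 and Cd8b1, and the list summed to 2.89 to 24.1 CPM untreated and 48.6 to 65.1 CPM irradiated. Of 10 tested B cell markers 2 passed, Bank1 and Fcrl1, and the list summed to 0.787 to 23.3 CPM untreated and 48.9 to 50.2 CPM irradiated. In untreated replicate 2, with the lowest sums, the T cell receptor chain gene Cd3g and the B cell receptor gene Cd79a had 0 counts. Both are named after their values were seen. Scd2 in that library was 142.3 CPM, the lowest of the 6 libraries. Among irradiated libraries the T cell sum was highest in replicate 2, where Scd2 was lowest, and the B cell sums were close together. The part of lymphocytes in the rise of Scd2 was not tested.

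Genes around these pathways gave no call. The 38 related sterol genes handle SREBP processing, liver X receptor signalling, sterol transport and bile acid synthesis. Of them 31 were tested and none passed by edgeR, DESeq2 or limma-voom, with a median log2 fold change of -0.03. At an unadjusted p under 0.05 there were 3 positive and 4 negative genes, against 15.0% of all tested genes. Nr1h2, which encodes a liver X receptor that senses oxysterols, stood at 29.2, 25.9 and 24.6 CPM untreated and 19.6, 18.4 and 21.0 CPM irradiated. The groups did not overlap, and the log2 fold change was -0.43 (SE 0.12; edgeR adjusted p = 0.0756). Fdx1, the ferredoxin that passes electrons to mitochondrial P450 enzymes such as Cyp27a1, was also lower in each irradiated library, at 16.9, 14.9 and 13.0 CPM against 11.3, 12.7 and 8.55 CPM. Its log2 fold change was -0.46 (SE 0.16; edgeR adjusted p = 0.171).

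Of 40 related fatty acid genes 34 were tested and none passed by edgeR, DESeq2 or limma-voom, with a median log2 fold change of 0.04. At an unadjusted p under 0.05 there were 5 of 34, all positive, near the 15.0% of all tested genes. Hsd17b12, the ketoreductase of the elongation cycle, stood at 14.2, 16.4 and 13.7 CPM untreated and 20.6, 18.2 and 18.4 CPM irradiated, with a log2 fold change of 0.38 (SE 0.13; edgeR adjusted p = 0.164). Gpam, the first acyltransferase of glycerolipid synthesis, lay at 21.5, 21.6 and 21.1 CPM untreated and 24.3, 26.6 and 28.3 CPM irradiated, with a log2 fold change of 0.30 (SE 0.11; edgeR adjusted p = 0.194). For both, every irradiated library lay above every untreated one.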

How the data were processed

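Whole-number read counts per Ensembl gene were deposited by the authors, 1 table per sample. The submitters' processing notes list bcl2fastq, HISAT2, HTSeq and the build mm10. Their versions, the annotation release and the strand setting are not given in the sources used here. Rows naming no gene held 32.4% to 40.7% of reads per library and were left out. Gene names, coordinates and lengths came from GENCODE M21, whose build is mm10; 52489 of 52636 genes matched a symbol.

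Genes were tested by quasi-likelihood in edgeR 4.0.16 (R 4.3.3) with robust shrinkage, TMM scaling and filterByExpr (minimum count 10), fitted over 12885 genes with Benjamini-Hochberg adjustment and a threshold of 0.05. CPM values are TMM-scaled. Standard errors and 95% intervals were derived from each gene's F statistic. The code was tested on simulated counts. DESeq2 1.42.0, limma-voom (limma 3.58.1), other scalings, no filter, a replicate block, a length and GC correction and leaving out each library were alternatives.

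All 36 members may be named, and of other listed genes those past the threshold or the 2 with the smallest p. Outside this rule, Adipoq and Plin1 are named as examples of their list. Cd3g, Cd79a, Scd3 and some macrophage markers are named after their values were seen. Ctsb and Akap9 are named because they overlap members. Members and lists were chosen with earlier results of these data known.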

Additional observations from a re-analysis of the deposited data

How the results depend on the processing

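Over 14 alternatives to the edgeR fit, 21 of the 35 tested members had 1 sign throughout, and 437 of 490 recomputed member values kept both direction and side of the threshold. The cause of the changes below was not tested.

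Over all genes, 84 were called higher and 45 lower. The counts were 260 and 22 with library totals alone, 20 and 5 with limma-voom, 21 and 5 without robust shrinkage, 279 and 239 without the count filter, and 121 and 70 with DESeq2. Leaving out 1 library gave 31 to 83 higher and 14 to 72 lower, the fewest in both directions without irradiated replicate 1.

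Members called higher numbered 4 with library totals alone (Idi1, Insig1, Srebf2 and Scd2), 3 without the count filter (Idi1, Insig1 and Scd2), 0 with limma-voom, 0 without robust shrinkage and 0 to 1 when 1 library was left out. Members called lower numbered 2 without the filter (Fdft1 and Cyp27a1), 0 with library totals alone, limma-voom or no robust shrinkage, and 0 to 1 when 1 library was left out. Without the filter 1 related gene, Nr1h2, was called lower. With library totals alone 1 member had all irradiated libraries below the untreated ones, against 3 with TMM; this alternative was added after seeing the data.

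Scd2 did not pass with limma-voom (0.85) or without robust shrinkage (0.88), and ranged from 0.68 to 1.03 when 1 library was left out. Its edgeR, DESeq2 and limma-voom adjusted p ranged from 2.9e-07 to 0.0846. Cyp27a1 did not pass with library totals alone (-0.95), limma-voom (-1.16) or no robust shrinkage (-1.10), and ranged from -1.46 to -0.82 when 1 library was left out. Its adjusted p over the same tools ranged from 7.11e-05 to 0.0991. The median over all members ranged from -0.0070 to 0.29 when 1 library was left out. That of the squalene to cholesterol steps was 0.34 with library totals alone and ranged from 0.061 to 0.25 when 1 library was left out.

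The deviations of same-numbered libraries correlated at 0.0199, -0.1109 and -0.1073. These values gave no sign that replicate numbers pair the samples, but with so few libraries they cannot exclude it. With the replicate block 39 genes were called higher and 14 lower, 0 members were called lower, and Cyp27a1 was at -1.16, Me1 at -0.021 and Scd1 at 0.079.

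Other signs changed as follows, none of these genes passing in any fit. Library totals alone gave Acat2 0.13, Pmvk 0.0017, Lss 0.075, Nsdhl 0.091, Elovl1 0.018 and Scd1 0.16. Limma-voom gave Me1 -0.0087, Scd1 0.080 and Fads2 -0.074. A length and GC correction gave Sc5d -0.076 and Me1 -0.052. When 1 library was left out, Acat2 ranged from -0.32 to 0.17, Pmvk from -0.50 to 0.067, Mvd from -0.075 to 0.14 and Lss from -0.18 to 0.0065. Nsdhl ranged from -0.18 to 0.12, Dhcr7 from -0.024 to 0.30, Acaca from -0.040 to 0.51 and Fasn from -0.040 to 0.67. Me1 ranged from -0.29 to 0.23, Scd1 from -0.28 to 0.49, Fads1 from -0.45 to 0.068 and Fads2 from -0.50 to 0.36.

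Depth limits, among others, Fdps, Stard4, Hsd17b7, Sqle and Fads2, which had 8 to 64 counts per library.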
